A study of Mus musculus with 2 samples.

Results

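The 4 mouse Hox clusters, HoxA, HoxB, HoxC and HoxD, were examined in a comparison of sorted cells from embryos at the time of neural tube closure. Members were taken by position: every transcript of the authors' deposited table whose locus overlapped chr6:52100000-52215000 (HoxA), chr11:96050000-96235000 (HoxB), chr15:102748000-102870000 (HoxC) or chr2:74500000-74606000 (HoxD) of mm9. This gave 73 of the 55418 transcripts in the table, at 44 loci, with 25 transcripts in HoxA, 18 in HoxB, 14 in HoxC and 16 in HoxD.

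Embryos carried the mTmG reporter and Grhl3-cre, both on a C57BL/6 background, and were collected at embryonic day 9.5 with 21 to 25 somites. In these embryos Cre made under the control of Grhl3, a gene of the surface ectoderm, turns membrane fluorescence from red to green. The green cells were labelled as non-neural ectoderm, and the red cells as whatever of the dissected neural tube region remained. Red cells are thus defined only by the lack of recombination. RNA came from a pool of 25 embryos, and each of the 2 sorted pools gave 1 library, so there was no replicate.

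The deposited table calls its conditions q1 and q2, which match neither pool's labels. A negative log2 fold change therefore says that a transcript was lower in q2 than in q1, and not in which sorted pool it was lower. The deposited p-values and q-values compare 2 libraries, and say nothing of how either cell population varies. In pooled cells, fewer cells that express a gene and less RNA per cell cannot be told apart. Transcripts have IDs but no gene names in the table, and 0 of the 73 member IDs matched the reference tables used here. The labelled cell types could therefore not be checked against marker genes, and individual Hox loci are given by ID and position. Hox transcripts and Hox loci below are those in the windows, and some need not belong to Hox genes. The windows held 44 loci, against 39 Hox genes that RefSeq lists in the 4 clusters. Among the 44 were untested loci of only 85 to 110 bases.

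Hox genes encode homeodomain transcription factors that give cells of the neural tube, mesoderm and other trunk tissues their position from head to tail. Within a cluster, genes at the end called anterior or 3′ come on early and reach far towards the head, and genes at the posterior or 5′ end come on late and stay near the tail. In the embryonic neural tube this order sets up the identities of hindbrain segments and of the motor neuron columns of the spinal cord. The RefSeq table used here (GRCm38.p6) lists 39 Hox genes in the 4 clusters. In that table the posterior end, with Hoxb13, Hoxc13 and Hoxd13, has the lowest coordinates on chromosomes 11, 15 and 2. On chromosome 6 the order is reversed, with Hoxa13 at the highest coordinates. Loci are described below by their place between the anterior and the posterior end on this basis.

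Nearly all tested Hox transcripts had a negative value, though few were called, and every call among them lay in the posterior parts of HoxC and HoxD. The authors tested 60 of the 73 transcripts, which lay at 35 loci. Of these 60, 59 were negative in the authors' deposited table, or 98.3%, where 49.5% of everything tested with a finite value was negative. Differences of at least 2-fold were negative for 35 and positive for 0 of the 60, which made 58.3% negative against 5.7% in the whole table. At least 4-fold, 12 were negative and 0 positive, or 20% against 1.72%. The median of the 60 was -1.06 on the log2 scale, a 2.09-fold lower level in q2, with quartiles of -1.57 and -0.66, while the median of the whole table was 0.0046. Many of these transcripts share a locus and so share reads: 39 of the 60 lay at loci that list several transcripts.

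**Figure D1:**
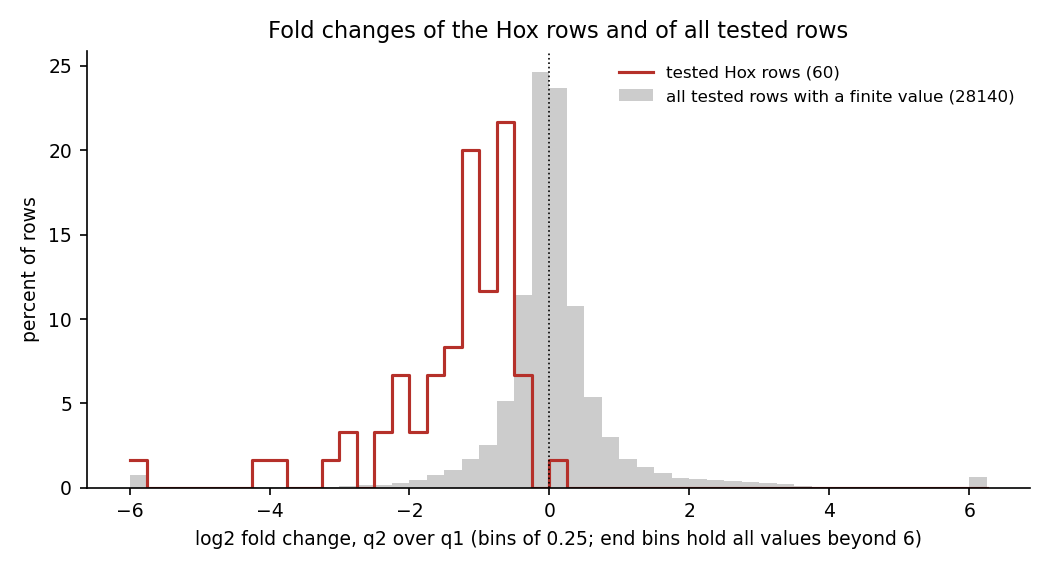
Percent of transcripts (vertical axis) in bins of the log2 fold change of q2 over q1 (horizontal axis), for all 28140 tested transcripts that have a finite value (grey) and for the 60 tested Hox transcripts (red line). The Hox transcripts have their median at -1.06 and the whole table at 0.0046.

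The authors' deposited table called 6 of the 60 tested Hox transcripts different, all of them negative. That is 10% of the members tested, against 0.112% of all tested transcripts that were called in this direction. These 6 made up 18.2% of the 33 negative calls in the table, which held 203 positive calls. At a deposited p-value under 0.05, before adjustment, 22 of the 60 were negative and 0 positive, or 36.7% against 1.09% of the whole table. All 6 calls lay at loci that list a single transcript. Calls numbered 4 of 15 tested transcripts in HoxD, 2 of 10 in HoxC, 0 of 21 in HoxA and 0 of 14 in HoxB. Tested loci that list a single transcript numbered 8 in HoxD, 5 in HoxC, 5 in HoxB and 3 in HoxA. In HoxA and HoxB, 4 and 5 tested transcripts had a deposited p-value under 0.05. Whether the clusters differ in their share of calls was not tested.

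In what follows, each log2 fold change of q2 over q1 is printed as the value ± its error, where the error is the absolute value over the absolute test statistic, both as deposited. Over the tested Hox transcripts the error had a median of 0.72 log2 units. It ranged from 0.36 to 848, and 19 of the 60 had an error above 1.

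HoxD held 4 calls at neighbouring loci. From the posterior end inwards these were uc008kdu.1 (chr2:74506366-74509655), uc008kdv.1 (chr2:74513086-74515762), uc008kdw.1 (chr2:74520449-74522195) and uc008kdx.2 (chr2:74530004-74533159). RefSeq on GRCm38.p6 lists Hoxd13, Hoxd12, Hoxd11, Hoxd10, Hoxd9 and Hoxd8 from that end, followed by the overlapping Hoxd3 and Hoxd4 and by Hoxd1. Posterior HoxD genes are known for their part in building limbs, digits and the genital tubercle, and are expressed in the lumbar and sacral spinal cord. The authors' deposited table gave uc008kdu.1 a value of -2.04 ± 0.54, 4.11-fold lower in q2, with q = 0.0236. For uc008kdv.1 the authors' deposited table gave -2.80 ± 0.76, 6.97-fold lower, with q = 0.0302. The value of uc008kdw.1 in the authors' deposited table was -2.36 ± 0.57, 5.13-fold lower, with q = 0.00675. The innermost of the 4, uc008kdx.2, was listed at -2.12 ± 0.52, 4.36-fold lower, with q = 0.00669 in the authors' deposited table. No neighbouring pair among these 4 loci differed by more than 2 errors.

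The HoxD loci anterior to this run had values nearer to 0, and none was called. The next locus, uc008kdy.1 (chr2:74533585-74535422), stood at -1.11 ± 0.93 in the authors' deposited table. It was followed by uc008kdz.1 (chr2:74535819-74538265) at -1.12 ± 0.49 in the authors' deposited table. The step between uc008kdx.2 and uc008kdy.1 was 0.96 times its error, so these neighbours did not differ beyond their error. At the anterior end, the authors' deposited table listed uc008kei.1 (chr2:74601036-74603199) at -1.15 ± 0.49, with q = 0.915. HoxD also held the single positive value among the tested Hox transcripts. This was uc008kee.1 at 0.14 ± 3.42 in the authors' deposited table, one of 5 tested transcripts of a locus of 38.2 kb.

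HoxC held the other 2 calls and, at its posterior end, 2 loci without a test. These were uc007xwv.1 (chr15:102751561-102759245) and uc007xww.1 (chr15:102767283-102768948), whose deposited fold change is the negative placeholder for a ratio against 0. On the scale of q2 over q1 a negative placeholder puts the 0 in q2, and no fold is given for them. The most posterior tested locus, uc007xwx.1 (chr15:102774492-102778161), stood at -4.12 ± 1.39 in the authors' deposited table. With q = 0.243 in the authors' deposited table it was not called. The next locus, uc007xwy.1 (chr15:102784956-102787132), was called, at -3.20 ± 0.78, or 9.17-fold lower in q2, with q = 0.00641 in the authors' deposited table. It was followed by the other HoxC call, uc007xwz.1 (chr15:102797295-102802152), at -1.86 ± 0.43, 3.63-fold lower, with q = 0.00315 in the authors' deposited table. RefSeq on GRCm38.p6 lists Hoxc13, Hoxc12, Hoxc11, Hoxc10, Hoxc9, Hoxc8, Hoxc6, Hoxc5 and Hoxc4 from this end.

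Further towards the anterior end of HoxC the values tended to come closer to 0, taking the transcript with the smallest error of each locus. In the authors' deposited table uc007xxa.1 (chr15:102807462-102814875) stood at -1.43 ± 0.52, and uc012aaf.1 (chr15:102820969-102824685) at -1.06 ± 0.46. Genes of the middle of HoxC are known from the brachial and thoracic spinal cord, where they set motor neuron identity. At the following locus, chr15:102829144-102842312, the authors' deposited table gave uc007xxd.1 a value of -0.59 ± 0.53 and the overlapping uc007xxc.1 one of -2.83 ± 1.29. Near the anterior end, uc007xxe.1 (chr15:102844438-102847860) was listed at -0.65 ± 0.46 and uc007xxg.1 (chr15:102849366-102867283) at -0.73 ± 0.48 in the authors' deposited table. The other transcript of that last locus, uc007xxf.1, was at -1.30 ± 1.07 in the authors' deposited table. None of these transcripts was called.

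HoxA showed the same order without a call. In its anterior part, uc009bxz.1 (chr6:52112509-52114830) stood at -0.57 ± 0.39 in the authors' deposited table. RefSeq on GRCm38.p6 lists Hoxa2 and Hoxa3 in this part, which are known for patterning the hindbrain and the neural crest of the pharyngeal arches. Beyond uc009bxz.1 a single locus of 47.9 kb, chr6:52115672-52163596, held 8 tested transcripts between -1.52 and -0.50 in the authors' deposited table. Among them uc009bya.2 had the smallest error, at -0.63 ± 0.58.

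Values in the posterior part of HoxA were more negative. The authors' deposited table listed uc009byl.1 (chr6:52174052-52177369) at -1.28 ± 0.48, with a p-value of 0.00838 before adjustment. The HoxA transcript nearest to a call was uc012ema.1 (chr6:52181195-52190853), at -2.03 ± 0.59, or 4.09 times lower in q2, with q = 0.0700 in the authors' deposited table. It was followed by uc009byn.1 (chr6:52192104-52199768) at -2.16 ± 0.67, with q = 0.130 in the authors' deposited table. Another transcript of that last locus, uc009byq.2, had the most negative value of all tested Hox transcripts, -15.51 ± 848, with a p-value of 0.985 in the authors' deposited table. With an error of that width the value says nothing about the size of a difference. The most posterior tested locus, uc009bys.1 (chr6:52208851-52210874), was at -3.91 ± 1.40, with q = 0.370 in the authors' deposited table.

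HoxB had the median closest to 0 of the 4 clusters. Its 14 tested transcripts lay between -1.90 and -0.45 in the authors' deposited table, with a median of -0.92, against medians of -1.12 in HoxD, -1.18 in HoxA and -1.37 in HoxC. The order of the other clusters depended on the loci counted. At loci that list a single transcript the medians were -0.86 in HoxB, -1.28 in HoxA, -1.69 in HoxD and -1.86 in HoxC. The anterior end of HoxB is known from the hindbrain, where Hoxb1 marks the fourth rhombomere. The most anterior locus, uc007lbz.2 (chr11:96227071-96229567), was at -0.86 ± 0.42 in the authors' deposited table. The next, uc007lby.1 (chr11:96212945-96215328), was at -0.66 ± 0.36, with the smallest error among the tested Hox transcripts. Towards the posterior end, the authors' deposited table listed uc007lbn.1 (chr11:96132643-96137907) at -1.27 ± 0.43, with q = 0.259. The last tested locus, uc007lbm.1 (chr11:96113082-96124288), was at -1.90 ± 0.61, or 3.74 times lower in q2, with q = 0.167 in the authors' deposited table. Beyond it lay 2 loci that were not tested and had a fold change listed at 0, uc007lbl.1 (chr11:96064767-96066699) and uc007lbk.1 (chr11:96055674-96057913). In RefSeq on GRCm38.p6, Hoxb13 lies at this end, next to Hoxb9 among the Hox genes.

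**Figure D2:**
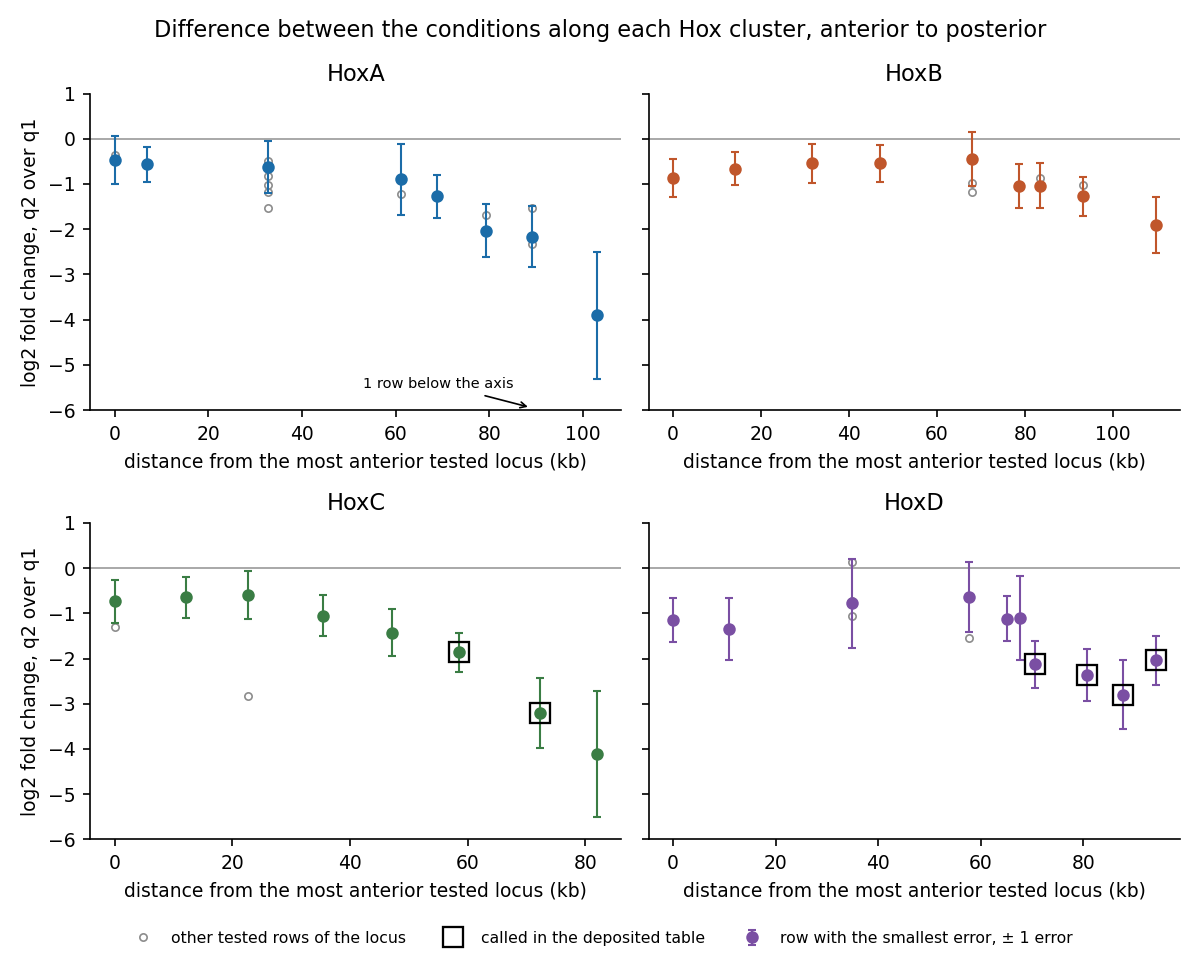
Log2 fold change of q2 over q1 (vertical axis) against the distance in kb from the most anterior tested locus (horizontal axis) in each cluster. Filled points are the transcript with the smallest error of each locus with bars of 1 error, open points the other tested transcripts, and squares the 6 calls. The most negative values lie towards the posterior end of each cluster, and 1 HoxA transcript at -15.51 lies below the axis.

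Along each cluster the values tended to be more negative towards the posterior end, but no pair of neighbouring loci differed by more than 2 errors. With 1 value per locus, the median of its tested transcripts, Spearman's rho between the order of loci and the log2 fold change was -1 in HoxA (8 loci), -0.8 in HoxB (9 loci), -0.90 in HoxC (8 loci) and -0.62 in HoxD (10 loci). Loci without a tested transcript are left out. At the posterior ends these were uc009byt.1 in HoxA, listed at 1.74 ± 1.91, 2 HoxC loci with a negative ratio against 0, and 2 HoxB loci listed at 0. The rho values describe neighbouring loci of 1 pair of libraries, which are not replicates, so no p-value is given. Of the 31 pairs of adjacent tested loci, 20 were more negative at the posterior locus, taking the transcript with the smallest error of each. Every HoxA pair went this way, while most HoxB pairs went the other way. From the anterior end of HoxB these values first rose, from -0.86 at uc007lbz.2 to -0.45 at uc007lbu.2. The largest step between neighbours was 1.51 times its error, between uc007xwz.1 and uc007xwy.1.

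Averaged over longer stretches, the posterior loci had more negative values than the anterior loci in each cluster, given here as a description with no test. Each window was divided at its midpoint, and the transcripts with the smallest error of each locus were averaged with weights from their errors. This gave 3 anterior and 5 posterior loci in HoxA, 7 and 2 in HoxB, 5 and 3 in HoxC, and 3 and 7 in HoxD. In HoxC the anterior loci averaged -0.89 ± 0.22 and the posterior loci -2.31 ± 0.36, a difference of -1.42 ± 0.42. In HoxA the averages were -0.55 ± 0.28 and -1.70 ± 0.30, a difference of -1.14 ± 0.40. For HoxB the averages were -0.73 ± 0.17 and -1.48 ± 0.35, a difference of -0.75 ± 0.39. The HoxD averages were -1.16 ± 0.37 and -1.80 ± 0.23, a difference of -0.64 ± 0.44. The difference was 3.35 times its error in HoxC and 2.82 times in HoxA. It stayed within 2 errors in HoxB, at 1.92 times, and in HoxD, at 1.47 times. In HoxD the midpoint lies anterior to the run of calls, and 3 loci without a call counted as posterior. These errors take the loci as independent, which neighbours in 1 pair of libraries need not be, so they may be too small. Whether the clusters differ in this was not tested.

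Transcripts around the clusters showed no such shift as a group. Within 500 kb of the 4 windows, the median over 86 other tested transcripts was 0.017 on the log2 scale. Of these, 5.81% were at least 2-fold negative and 46.5% were negative, close to the 5.7% and 49.5% of the whole table. Negative calls numbered 0 among the 86, which says little, since only 0.112% of all tested transcripts were called negative. Positive calls numbered 2, where the whole table had 203 among 29405 tested transcripts. Most of the 86 lay around HoxC and HoxB. HoxA had 1 on its anterior side and 5, at 3 loci, on its posterior side, and 2 of these 5 were at least 2-fold negative. HoxD had 2 on its anterior and 5 on its posterior side, each side at 1 locus. Transcripts of 1 locus share reads here too. The totals therefore say little about the surroundings of HoxA and HoxD. The nearest tested transcript beyond the posterior border of HoxD, at 83.0 kb, was uc008kdo.2 at -0.058 ± 1.56 in the authors' deposited table. Beyond its anterior border, at 57.9 kb, uc008kej.2 stood at 0.016 ± 0.34 in the authors' deposited table. An exception lay beyond the posterior border of HoxA, where uc009byu.1 (chr6:52258382-52268372), 43.4 kb away, was at -1.73 ± 0.69, with q = 0.694 in the authors' deposited table. RefSeq on GRCm38.p6 places the homeobox gene Evx1 beyond Hoxa13 on that side.

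**Figure D3:**
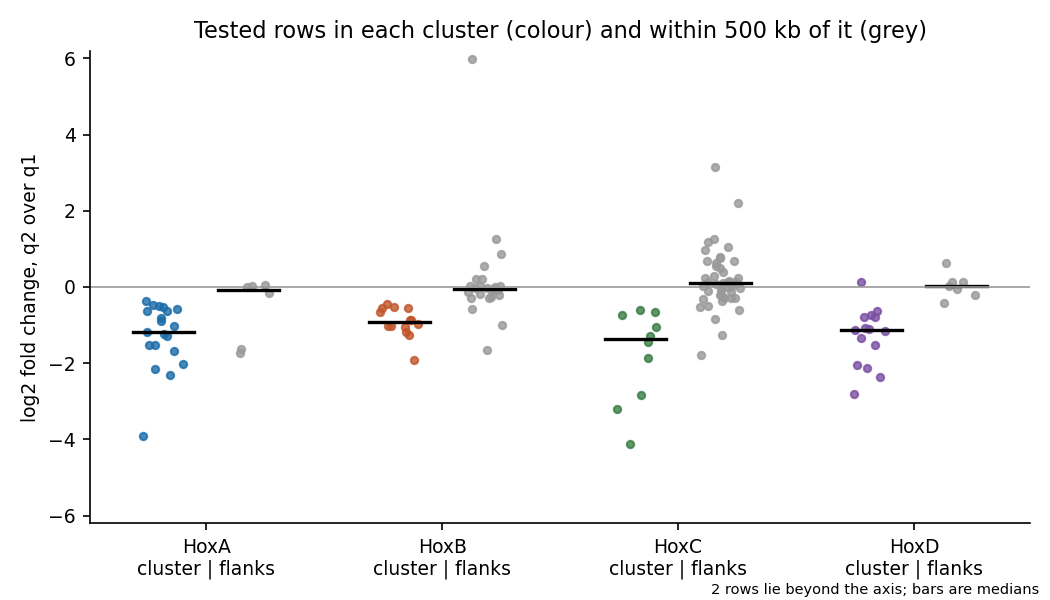
Log2 fold change of q2 over q1 (vertical axis) for the tested transcripts in each Hox cluster (coloured points) and for other tested transcripts within 500 kb of it (grey points); black bars are medians. The clusters lie below 0 apart from 1 HoxD transcript, the flanks spread around 0, and 2 transcripts lie beyond the axis.

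Of the 13 members that were not tested, 10 had a fold change listed at 0, among them all 4 in HoxB. The 2 HoxC transcripts with a ratio against 0 had p-values of 0.00527 for uc007xwv.1 and 0.0793 for uc007xww.1 in the authors' deposited table, where their q-values were listed at 1. The remaining one, uc009byt.1 (chr6:52212777-52217597), was listed at 1.74 ± 1.91 in the authors' deposited table. It is the most posterior transcript of HoxA and lies partly outside its window.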

How the data were processed

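RNA of 2 sorted pools was sequenced, with 1 library each. The submitters' processing notes name TopHat 1.3.2, Cufflinks 2.0.2, Cuffdiff and mm9. Cuffdiff's version and settings and the annotation were not given in the sources used here. A Cuffdiff table was deposited by the authors, with a log2 fold change, a test statistic (a score), a p-value and a q-value per transcript. The 2 columns of abundance are for q1 and q2, as the fold changes are, and match no sample's labels. They were not used, so levels are not given. Whether the most negative values rest on low levels was therefore not examined. Depth is also unknown. A call is a transcript that the authors' deposited table marks as significant, with q-values under 0.05. Recomputing Benjamini-Hochberg over the tested transcripts gave the deposited q-values to within 3.18e-06. Coordinates are printed as deposited; the table does not say if they are 0-based or 1-based.

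Members came from the windows by overlap of any length, and their statuses, calls, signs and sizes were counted. Named transcripts are all calls, the extreme values, those with small errors in each cluster, and, chosen after their values were seen, neighbours that show the order along a cluster. The members and lists were chosen with earlier results of these data known. The planned marker lists were not run, because transcripts have no gene names, and RefSeq promoters were not printed for the same reason. Loci that are not named are still counted in the totals. The finder of members, the adjustment and the rank correlation were tested on simulated data. Python 3.11.15, numpy 2.4.6, pandas 2.3.3 and matplotlib 3.10.9 were used.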

Additional observations from a re-analysis of the deposited data

How the results depend on the processing

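No paired analysis was possible because each pool gave 1 library, and no replicate could be left out. The 52 alternatives run all kept the negative direction, and 3 of them moved a count by over 1.5 times. As 59 of the 60 tested transcripts were negative, counts and medians over parts of them could hardly turn positive. The kept direction is therefore no support for the result. Limiting members to those wholly inside a window left out only a transcript that was not tested, so it could change no median. The 35 of 60 members at least 2-fold negative became 12 of 60 at 4-fold. They were 13 of the 23 members with an error of at most 0.6, and 17 of the 21 at loci that list a single transcript. These last 2 counts are lower because fewer members were counted. The 6 calls became 4 with q up to 0.01, 7 with q up to 0.1, and 5 when the deposited p-values were adjusted over all rows. Counting every status added 1 positive transcript of at least 2-fold. Loci with a single transcript gave a median log2 fold change of -1.35 in place of -1.06. In HoxD it was -1.69 in place of -1.12, and in HoxC -1.86 in place of -1.37. These shifts were not tested. Alternatives for the order along a cluster, and those with 1 transcript or 1 value per locus, were chosen after seeing the data; rho in HoxB then ranged from -0.86 to -0.6 and in HoxD from -0.72 to -0.58. The depth of the libraries is unknown, and with it the smallest difference these data could show.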
